A study of Mus musculus with 24 samples.

Results

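The S100 genes encode small calcium-binding proteins. Here 9 of them were followed in mouse liver: S100a1, S100a4, S100a6, S100a8, S100a9, S100a10, S100a11, S100a13 and S100a16. They were the rows of the deposited table that carried these symbols, 9 of 56205 Ensembl gene rows, and 8 other S100 genes were listed beside them. Whole livers of C57BL/6J mice were profiled by poly(A)-selected RNA-Seq after 20 weeks on a methionine-choline deficient diet (MCD, 12 libraries) or on its control diet (12 libraries). By its label the MCD diet lacks the amino acid methionine and the nutrient choline, and the study's methods describe it as rich in fat. The study's account of its mouse diets also uses another name, CDAHFD, for a choline-deficient, high-fat diet with defined amino acids, and whether that name refers to these livers is not given in the sources used here. The study fed males and females, 6 of each sex per diet, but no sex is given for a single library, and ages are not given for this experiment. All mice were of the same strain, and no other allele or agent was named.

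S100 proteins work mostly as pairs. Calcium opens a binding face on each subunit, which then grips a partner protein such as an annexin, a myosin or a receptor. S100a10 is an exception, since it has lost the ability to bind calcium and stays in its binding shape. S100a8 and S100a9 together form calprotectin, an abundant protein of neutrophils and monocytes that is released at sites of inflammation. S100a4, S100a6 and S100a11 are best known from motile and dividing cells, including macrophages, fibroblasts and duct epithelium.

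All 9 members lie on chromosome 3 (mm10, GENCODE M21 coordinates). S100a1 (90511034 to 90514392, minus strand) starts the first group. S100a13, S100a16, S100a4, S100a6, S100a8 and S100a9 follow it within 184.7 kb. S100a11 (93520488 to 93526287) stands 2824.8 kb further on, with S100a10 28.8 kb beyond it. The exons of S100a4 overlap those of the predicted gene Gm42674 on the same strand by 302 bp, so reads there could belong to either gene, whereas no other member shares exon sequence with an annotated gene. S100a1 and S100a13 run head to head, with 42 bp between their starts.

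Upstream sequences are shown for the member with the largest rise, for a calprotectin gene, for the annexin partner S100a11 and for the shared S100a1 and S100a13 start. They come from RefSeq promoter windows of GRCm38.p6, in which 8 of the 9 members were found. S100a10 had no entry. Capitals mark a TATAAA or TGANTCA match. The S100a4 stretch is chr3:90603650-90603769, the S100a8 stretch chr3:90669031-90669060, the S100a11 stretch chr3:93520376-93520487 and the S100a1 and S100a13 gap chr3:90514393-90514434, all on the plus strand. Upstream here means before the RefSeq start: GENCODE M21 places the S100a8 start earlier, at 90668978, so that its stretch lies inside the GENCODE gene, whereas the other stretches lie outside their own GENCODE genes. The gap of S100a1 and S100a13 is that between their GENCODE starts, and the RefSeq start of S100a1 lies further back, inside the GENCODE gene.
S100a4: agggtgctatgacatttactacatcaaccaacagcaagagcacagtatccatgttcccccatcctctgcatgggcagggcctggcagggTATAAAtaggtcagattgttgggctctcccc
S100a8: agctttcctcTATAAAagcagctgacactt
S100a11: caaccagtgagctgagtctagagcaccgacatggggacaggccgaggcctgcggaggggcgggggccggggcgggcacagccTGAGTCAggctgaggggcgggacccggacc
S100a1 and S100a13 gap: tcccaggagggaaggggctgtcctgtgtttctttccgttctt

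A set of 4 motifs was searched on both strands in the 250 bases before each start. TATAAA, the TATA box, began 31 bases before the start of S100a4 and 30 bases before that of S100a8, and 12.4% of all 32851 windows held it. TGANTCA, the letters of an AP-1 site, began 38 and 136 bases before the start of S100a11 and 192 bases before one of the 2 S100a16 starts, against 6.75% of windows. The single match of TTGCNNAA (C/EBP, 9.56% of windows) lay 236 bases before S100a9, and that of CCAAT (33.8%) lay 228 bases before S100a6. S100a13, S100a11 and S100a1 held 13, 11 and 8 CpG pairs in these 250 bases, and the windows of the other matched members 1 to 3, with a median of 6 over all windows. These matches describe letters, and binding was not measured.

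Library totals ran from 16793207 to 24915175 counts in control livers and from 16388650 to 24577848 in MCD livers. A floor of 3 counts corresponded to 0.109 to 0.227 CPM, a gene's count scaled to a common library size and corrected with trimmed-mean (TMM) factors. The factors were 0.642 to 0.973 in control and 1.07 to 1.26 in MCD livers, and the lowest belonged to control replicate 12. That library stood apart for several members, and values without it are given where it matters. Alb, the hepatocyte product albumin, was abundant in every library, at 37950 CPM or more, as the liver label asks. A gene was past the threshold at FDR ≤ 0.01 and |log2FC| > 0.5 in edgeR's quasi-likelihood test over 14109 genes. In bulk liver, a lower level from fewer cells of a type and one from less RNA per cell cannot be told apart.

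On the MCD diet 5 members rose: S100a4, S100a6, S100a8, S100a9 and S100a11. The other 4, S100a1, S100a10, S100a13 and S100a16, did not pass. Among all tested genes, 19.2% were higher in MCD and 19.1% were lower. No member was lower in edgeR, either at the threshold or at an unadjusted p under 0.05, and none was lower in DESeq2 or limma-voom. For S100a4, S100a6, S100a8 and S100a11 every MCD library lay above every control library, a pattern seen in 9.50% of tested genes. S100a4, S100a8 and S100a9 had median control counts of only 5.5, 7 and 12.5 and met the count filter through their MCD libraries. Their place in these counts thus depended on the group where they were high. The members' median log2FC was 2.28, and that of all tested genes was -0.10. The plot of each library shows the 5 members that rose in its first 5 panels.

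**Figure D1:**
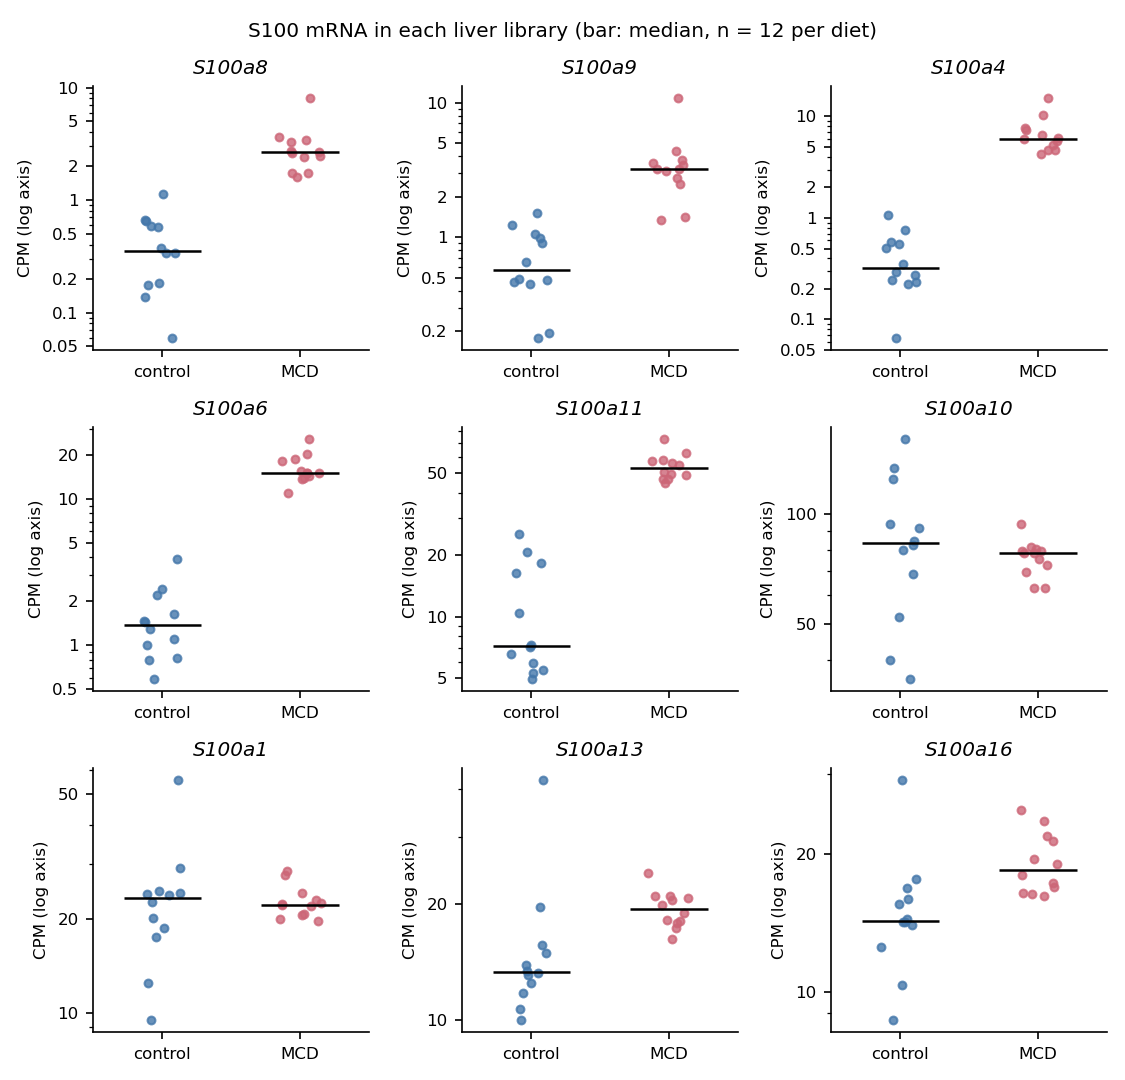
CPM of the 9 S100 genes on log axes, with a point for each liver library (12 control, 12 MCD) and a bar at the median. S100a8, S100a4, S100a6 and S100a11 separate the diets fully, whereas S100a10 and S100a1 overlap and are spread more widely in control livers.

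S100a8 encodes the smaller calprotectin subunit. In control livers it had 0.0590, 0.356 and 1.14 CPM (lowest, median and highest), and in MCD livers 1.59, 2.66 and 8.07 CPM. No MCD library fell within the control range. Its log2FC was 2.80 (SE 0.32, n = 12 per diet, edgeR FDR = 3.6e-08). The control level rests on few reads, 89 counts in 12 libraries, with 4 libraries at or under 3 counts.

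S100a9, the other calprotectin subunit, ran at 0.177, 0.572 and 1.51 CPM in control livers and at 1.34, 3.20 and 10.8 CPM in MCD livers. Of the 12 MCD libraries 10 exceeded every control library, and MCD replicates 1 and 11 fell under control replicate 12. Its log2FC was 2.34 (SE 0.33, n = 12 per diet, edgeR FDR = 7.6e-07). MCD replicate 3 held the highest level of both subunits, and without it the log2FC was 2.60 for S100a8 and 2.10 for S100a9, both still past the threshold.

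Of 14 neutrophil marker genes only Csf3r had enough counts to be tested, and it rose by 1.44 (SE 0.14, edgeR FDR = 2.2e-09) on the log2 scale. The summed level of the list was 2.89 to 7.81 CPM in control and 12.1 to 31.9 CPM in MCD livers, with its highest value in MCD replicate 3. Csf3r made up most of it in every control library, and the other 13 genes summed to 0.455 to 2.80 CPM in control and 2.47 to 19.2 CPM in MCD livers, overlapping through MCD replicate 11. Ly6g, a surface marker that defines mouse neutrophils, had 0 counts in every control library and 0 to 3 counts in MCD libraries. Mpo, the granule peroxidase, had 0 to 5 counts in control and 2 to 69 in MCD libraries, and the neutrophil resistin-like gene Retnlg had 0 to 5 and 1 to 31. The share of neutrophils in the S100a8 and S100a9 rise was not tested.

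The ratio of S100a8 to S100a9 counts does not depend on library scaling. Its log2 value was -0.76 ± 0.97 (SD, n = 12) in control and -0.19 ± 0.31 (n = 12) in MCD livers, with overlapping ranges. The difference of 0.56 missed the threshold (two-sided permutation test, adjusted p = 0.0688 over 3 ratios). Without control replicate 10, which had 10 S100a8 and 3 S100a9 counts, the difference was 0.78 (adjusted p = 0.00155). It was 0.65 (adjusted p = 0.0363) without control replicate 11.

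Within the MCD livers the subunits varied together, with Pearson's r = 0.923 (permutation adjusted p = 0.00108 over 6 relations) and Spearman's rho = 0.804 (adjusted p = 0.0161) over 12 libraries. Leaving out the 2 libraries farthest from the median of S100a8 gave r = 0.745 (permutation adjusted p = 0.0484, n = 10), but rho = 0.661 no longer passed (permutation adjusted p = 0.249). In control livers r was 0.513 (permutation adjusted p = 0.107) and rho 0.608 (adjusted p = 0.0595). Without the 2 farthest control libraries r was 0.0325 (n = 10). The difference between the diets in this relation was not tested.

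S100a4, also called fibroblast-specific protein although macrophages express it too, had the largest log2FC among the members. It had 0.0651, 0.322 and 1.06 CPM (lowest, median and highest) in control livers and 4.30, 6.05 and 15.2 CPM in MCD livers. The ranges lay far apart. Its log2FC was 4.01 (SE 0.28, 95% interval 3.44 to 4.59, n = 12 per diet, edgeR FDR = 7.5e-12), a 16.1-fold difference, with only 89 counts in all control libraries together. Among tested genes, 0.369% had a larger log2FC.

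S100a6, or calcyclin, binds annexins and the ubiquitin ligase adaptor Cacybp. Its control levels were 0.586, 1.38 and 3.86 CPM, and its MCD levels 11.01, 15.1 and 25.6 CPM. All MCD libraries were above all control libraries. The log2FC was 3.40 (SE 0.22, n = 12 per diet, edgeR FDR = 2.1e-12), or 10.6-fold.

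S100a11 pairs with annexin A1 and takes part in membrane repair. It ran at 4.94, 7.21 and 25.1 CPM in control and at 44.6, 52.7 and 73.1 CPM in MCD livers. The ranges did not meet, although control replicates 4, 8, 11 and 12 reached 16.3, 20.6, 25.1 and 18.3 CPM while the other control libraries stayed at 10.4 CPM or less. Its log2FC was 2.28 (SE 0.24, n = 12 per diet, edgeR FDR = 1.0e-08), or 4.85-fold.

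MCD replicate 2 held the highest S100a4, S100a6 and S100a11 levels, and MCD replicate 10 the next highest of each. The same libraries held the highest summed level of 12 monocyte and macrophage markers, 3719 and 2628 CPM, against 1645 to 2544 CPM in the other MCD livers and 141 to 396 CPM in control livers. Among control livers replicate 4, high for S100a11, held the highest sum. Replicates 8, 11 and 12, also high for S100a11, had 281, 257 and 228 CPM, below replicates 2 and 5 (310 CPM each). Lyz2 and Gpnmb made up most of the MCD sums, and without them MCD replicates 2 and 10 were still the highest, at 740.3 and 578 CPM. All 12 of these markers rose, Adgre1 (the macrophage antigen F4/80) by 0.65 (SE 0.13, edgeR FDR = 0.00012) on the log2 scale. All 8 cholangiocyte markers rose as well, with sums of 31.4 to 148 CPM in control and 466 to 952 CPM in MCD livers. Most of that sum was Spp1 (osteopontin), at 58.7 ± 32.8 and 593 ± 147 CPM (SD, n = 12), and the other 7 summed to 5.01 to 21.7 and 54.6 to 143 CPM. The highest MCD sums were in replicates 8, 2 and 6 (952, 934 and 865 CPM), with 754 CPM in replicate 10, and the highest control sums were in replicates 11 and 12 (148 and 106 CPM), both high for S100a11. Without Spp1 the highest control sums were in replicates 4, 12 and 3 (21.7, 18.8 and 16.6 CPM), and replicate 11 had 10.4 CPM. Krt19, a keratin of bile duct cells, rose by 2.99 (SE 0.29, edgeR FDR = 2.5e-09).

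Of 12 mesenchymal markers 9 rose and 1 fell. Their sum was 234 to 676 CPM in control and 859 to 1475 CPM in MCD livers, and Acta2, the smooth muscle actin of activated stellate cells, rose by 1.01 (SE 0.25, edgeR FDR = 0.00099). Of the 4 control libraries high for S100a11, replicates 4, 8 and 11 held the 3 highest control sums of this list, 676, 557 and 594 CPM, whereas replicate 12 had a low sum of 273 CPM. Among MCD livers replicates 8 and 6 were highest, at 1475 and 1255 CPM, with 1117 CPM in replicate 2 and 1157 CPM in replicate 10. Of 8 lymphocyte markers 4 rose, with sums of 3.94 to 12.4 and 11.1 to 24.8 CPM. Of 8 resident Kupffer cell markers 5 fell, Clec4f by 1.11 (SE 0.27, edgeR FDR = 0.00071), as did 5 of 7 endothelial and 2 of 8 hepatocyte markers, among them Alb, which fell by 0.62 (SE 0.11, edgeR FDR = 3.8e-05). The part of these cell types in the S100 rises was not tested.

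S100a10, or p11, joins a pair of annexin A2 molecules into a complex that binds plasminogen activators at the cell surface. It ran at 35.3, 83.4 and 160.6 CPM (lowest, median and highest) in control and at 62.9, 78.3 and 93.8 CPM in MCD livers. The MCD libraries sat inside the control range. The log2FC was -0.20 (SE 0.18, 95% interval -0.57 to 0.17, n = 12 per diet, edgeR FDR = 0.347), and it became 0.20 (FDR = 0.314) under scaling by library totals without TMM factors.

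S100a1, best known from heart muscle, where it binds calcium-handling proteins, had 9.47, 23.3 and 55.6 CPM in control and 19.7, 22.2 and 28.5 CPM in MCD livers. Of the 12 control libraries 7 lay above the MCD median. Its log2FC was -0.04 (SE 0.18, 95% interval -0.41 to 0.32, n = 12 per diet, edgeR FDR = 0.844), so no direction is given. All 9 other fits of the same libraries changed its sign, giving 0.01 to 0.38, but scaling moves all genes. Relative to the median of all tested genes S100a1 stood at 0.06 under TMM and at 0.11 with total counts.

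S100a13, which helps fibroblast growth factor 1 and interleukin 1 alpha leave the cell, had 9.96, 13.3 and 42.2 CPM in control and 16.2, 19.5 and 24.1 CPM in MCD livers. Among control libraries 10 of 12 lay under every MCD library, and control replicate 12 lay above them all. Its log2FC was 0.30 (SE 0.17, 95% interval -0.05 to 0.65, n = 12 per diet, edgeR FDR = 0.129). Without control replicate 12 it was 0.56 (edgeR FDR = 5.3e-06), past the threshold.

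S100a16, which has been tied to fat cell formation, had 8.67, 14.3 and 29.1 CPM in control and 16.2, 18.5 and 24.96 CPM in MCD livers. Again most control libraries, 9 of 12, lay under every MCD library, and control replicate 12 was the highest of all. Its log2FC was 0.34 (SE 0.13, 95% interval 0.06 to 0.62, n = 12 per diet, edgeR FDR = 0.0300). Without control replicate 12 it was 0.49 (edgeR FDR = 0.00016), still under the fold limit. Leaving out control replicate 12 and MCD replicate 3 together, a choice made after the values were seen, gave 0.53 (edgeR FDR = 5.2e-05) for S100a16 and 0.59 (FDR = 2.7e-06) for S100a13, and 7 members were then higher.

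**Figure D2:**
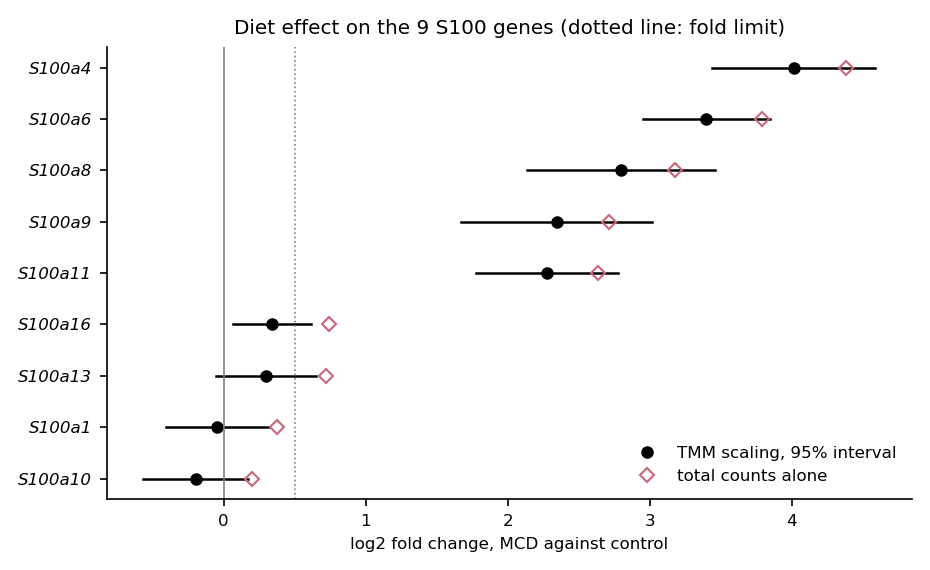
Log2FC of the 9 S100 genes, MCD against control, with 95% intervals under TMM scaling (filled points) and the estimate with total counts alone (open diamonds). The 5 members that rose have intervals with lower ends of 1.67 or more, and total counts move every estimate to the right, S100a10 from -0.20 to 0.20.

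The choice of scaling moved all genes together: with total counts alone the median log2FC of tested genes shifted by 0.37. Relative to that median, S100a13 and S100a16 stood at 0.40 and 0.44 under TMM and at 0.46 and 0.48 under total counts. S100a10 stood at -0.10 and -0.07. Under total counts S100a13 (0.72) and S100a16 (0.74) passed the threshold.

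The coefficient of variation of CPM was lower in MCD than in control livers for 8 of the 9 members, all but S100a9. It was 48.8% in control and 12.2% in MCD livers for S100a1, 43.2% and 11.1% for S100a10, 54.3% and 11.02% for S100a13, and 32.9% and 15.6% for S100a16. Among the members that rose it was 63.5% and 15.01% for S100a11, 58.7% and 23.3% for S100a6, 64.7% and 43.7% for S100a4 and 69.9% and 56.7% for S100a8. S100a9 had 58.4% and 67.1%. Without control replicate 12 the control value was smaller for some members, 27.8% for S100a1, 19.4% for S100a13 and 19.1% for S100a16, but 38.8% for S100a10 and 67.0% for S100a11. Without MCD replicate 3 the MCD value was 31.4% for S100a9 and 26.7% for S100a8. With both left out it was lower in MCD livers for all 9 members. These libraries were chosen after the values were seen, and no test of the spreads was made. A lower value in MCD livers was not particular to these members: Alb had 23.0% and 13.2%, and Anxa2 81.4% and 17.8%. Clec4f went the other way, with 32.8% and 52.5%. The share over all tested genes was not counted.

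Levels between genes were compared as CPM per kb of exon, with all annotated exons of a gene joined, which understates genes whose long exons are rarely used. In control livers S100a10 stood first at 72.0 ± 31.1 CPM per kb (SD, n = 12), followed by S100a1 (33.9 ± 16.5), S100a13 (22.2 ± 12.1) and S100a11 (21.7 ± 13.8), then S100a16 (9.46 ± 3.11). The low group was S100a9 (1.37 ± 0.801), S100a6 (1.14 ± 0.667), S100a4 (0.736 ± 0.476) and S100a8 (0.627 ± 0.439). In this order the mean ± SD ranges of every pair of neighbours overlapped, apart from S100a16 and S100a9.

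In MCD livers S100a11 led at 105.6 ± 15.9 CPM per kb (SD, n = 12). S100a10 (62.8 ± 7.0), S100a1 (32.8 ± 4.0) and S100a13 (27.3 ± 3.01) came next. S100a4, S100a6 and S100a16 stood level at 11.97 ± 5.24, 11.96 ± 2.79 and 11.95 ± 1.86, above S100a9 (6.94 ± 4.66) and S100a8 (4.36 ± 2.48). S100a11 thus moved from rank 4 to rank 1, and its mean ± SD range was clear of that of S100a10. S100a10 was likewise clear of S100a1, and S100a13 of S100a4, whereas all other neighbours overlapped.

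**Figure D3:**
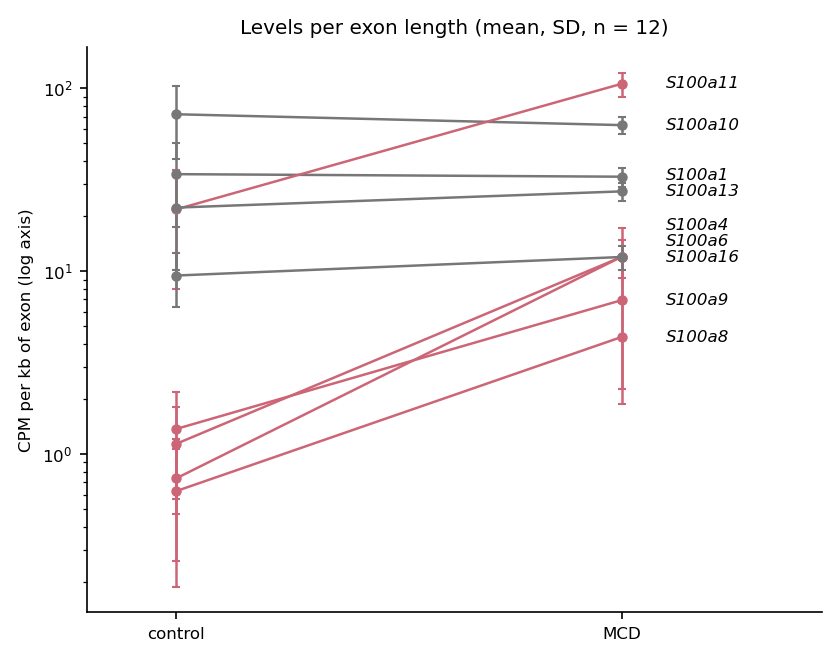
Mean level per exon length (CPM per kb, log axis, SD bars, n = 12) of each S100 gene in control and MCD livers, with members that rose in red and the others in grey. S100a11 crosses S100a10, and S100a4 and S100a6 reach the level of S100a16.

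Partner genes were read as a list of 32: annexins and p11 partners, receptors, cytoplasmic targets, release partners and the plasmin system. All were tested, 15 rose, 4 fell and 13 did not pass, beside 19.2% and 19.1% of all genes. The list's median log2FC was 0.45. Among annexins and p11 partners, Anxa1, Anxa2, Anxa5 and Ahnak rose, and Dysf, the membrane repair protein dysferlin, fell by 0.83 (SE 0.19, edgeR FDR = 0.00055). Ahnak, a giant scaffold held at the membrane by S100a10 and annexin A2, had 15.3 ± 3.87 CPM (SD, n = 12) in control and 58.9 ± 9.49 CPM in MCD livers, a log2FC of 1.94 (SE 0.12, edgeR FDR = 1.8e-12).

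Anxa2 had 9.22, 17.4 and 71.2 CPM (lowest, median and highest) in control and 94.6, 130.0 and 186.1 CPM in MCD livers. The groups did not overlap. Its log2FC was 2.35 (SE 0.30, n = 12 per diet, edgeR FDR = 1.8e-07), beside -0.20 for S100a10. The log2 ratio of S100a10 to Anxa2 counts was 1.98 ± 0.86 (SD, n = 12) in control and -0.78 ± 0.23 in MCD livers, and the lowest control ratio, 0.58, was above the highest MCD ratio, -0.52. This difference of -2.76 had an adjusted p of 1.5e-05 (two-sided permutation test over 3 ratios, unadjusted p = 1e-05, the smallest that the resamples can give).

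The ratio of the other annexin pair shifted in the same direction. Anxa1, an annexin that resolves inflammation, had 1.72, 3.75 and 6.94 CPM in control and 39.6, 53.2 and 101.2 CPM in MCD livers. With no overlap, its log2FC was 3.76 (SE 0.21, n = 12 per diet, edgeR FDR = 2.3e-13), the largest in the partner list. The log2 ratio of S100a11 to Anxa1 was 1.26 ± 0.53 (SD, n = 12) in control and -0.06 ± 0.24 in MCD livers, again without overlap. The difference was -1.32 (permutation test, adjusted p = 1.5e-05). Both genes of this pair rose, and Anxa1 rose more.

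**Figure D4:**
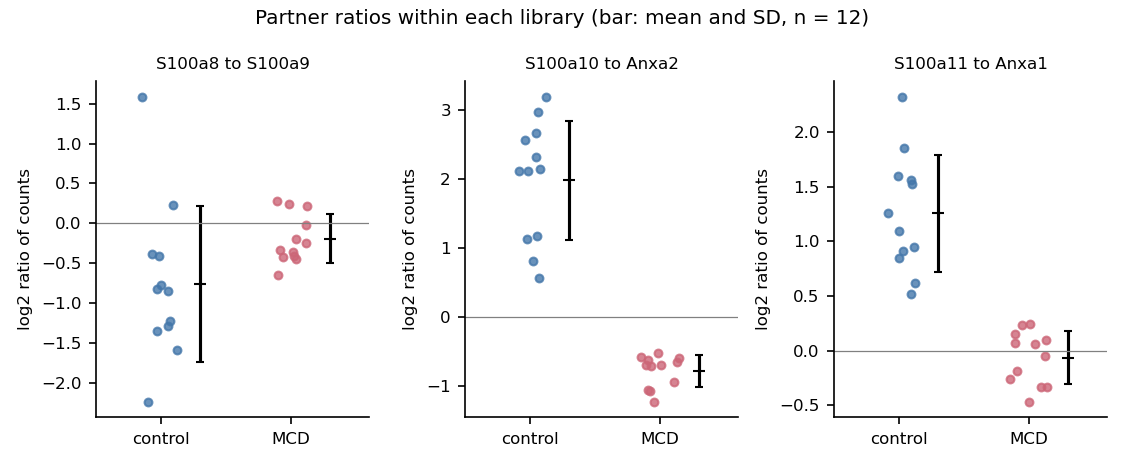
Log2 ratios of counts within each library for 3 pairs of genes whose proteins bind each other (12 control and 12 MCD points, mean and SD beside them). The diets separate fully for S100a10 to Anxa2 and S100a11 to Anxa1, and overlap for S100a8 to S100a9.

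Within a diet, S100a11 and Anxa1 varied together, with r = 0.783 (permutation adjusted p = 0.00542 over 6 relations, rho = 0.713) in control and r = 0.837 (adjusted p = 0.00231, rho = 0.741) in MCD livers. The adjusted p of rho was 0.0233 in control and 0.0233 in MCD livers by the same permutation test. Both relations rest on a few libraries, because without the 2 farthest from the median of S100a11 they fell to 0.625 (permutation adjusted p = 0.170) and 0.496 (adjusted p = 0.262). S100a10 and Anxa2 gave r = 0.530 (permutation adjusted p = 0.107, rho = 0.545) in control and 0.425 (adjusted p = 0.165, rho = 0.399) in MCD livers. Neither relation passed.

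Of 8 receptor genes 4 rose. Ager, the receptor for advanced glycation end products that S100 proteins engage outside cells, had 0.526 ± 0.305 CPM (SD, n = 12) in control and 1.09 ± 0.288 CPM in MCD livers, a log2FC of 1.05 (SE 0.25, edgeR FDR = 0.00068). Tlr4, the endotoxin receptor that calprotectin activates, rose by 0.89 (SE 0.19, edgeR FDR = 0.00026), and Cd14 and Alcam rose too. Bsg, or basigin, a receptor for S100a9, stood at 362.7 ± 39.9 and 374.8 ± 39.0 CPM, a log2FC of 0.05 (SE 0.07, FDR = 0.586). Fpr1, the formyl peptide receptor, fell by 0.59 (SE 0.19, edgeR FDR = 0.00916), a call kept by 0 of 9 other fits and by 6 of 24 fits with a library left out.

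Of 7 cytoplasmic targets, Iqgap1 and Myh10 rose. Myh9, the non-muscle myosin heavy chain that S100a4 binds, had 209.9 ± 54.0 CPM in control and 276.6 ± 25.2 CPM in MCD livers, a log2FC of 0.40 (SE 0.11, edgeR FDR = 0.0025) that stayed under the fold limit. Cacybp, the S100a6 partner, had a log2FC of -0.26 (SE 0.08, edgeR FDR = 0.00916), also under it. Of the 3 release partners of S100a13, Fgf1 fell by 0.91 (SE 0.14, edgeR FDR = 2.4e-06), the largest fall in the partner list, and Il1a and Syt1 did not pass.

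Plasmin system genes were among those that rose. Plaur, the urokinase receptor, rose by 3.35 (SE 0.22, edgeR FDR = 2.7e-12). Plat, tissue plasminogen activator, rose by 3.12 (SE 0.31, edgeR FDR = 3.5e-09) from 1.04 ± 0.919 to 9.32 ± 2.85 CPM. Plau, urokinase, rose by 2.26 (SE 0.16, edgeR FDR = 9.7e-12), and the plasminogen receptor Plgrkt rose as well. Plg, the hepatocyte product plasminogen on which the activators act, fell by 0.58 (SE 0.11, edgeR FDR = 3.3e-05), a call kept by 6 of 9 other fits.

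The 8 other S100 genes had too few counts to be tested, so 0 were called by edgeR, DESeq2 or limma-voom, and 0 had a p. S100a14, an epithelial member, had 0 to 3 counts in control and 0 to 12 in MCD libraries, and 10 of 12 MCD libraries exceeded every control library. S100g, or calbindin-D9k, had 0 to 8 and 2 to 13 counts. S100b, a glial member, had 0 to 1 and 0 to 8, S100a7a 0 and 0 to 3, S100a3 0 to 1 in both diets, and S100z 0 and 0 to 1. S100a2 and S100a5 had 0 counts in all 24 libraries. When the low-count filter was removed, S100a14 (log2FC 3.09, SE 0.57, edgeR FDR = 5.8e-05) and S100b (2.58, SE 0.79, FDR = 0.00974) passed the threshold on these few reads, and the size of such fitted changes depends on the prior count.

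Likeness was measured as Pearson's r of log2 CPM deviations from the diet mean over 24 libraries, which share depth and scaling factors, and is a description with no test. Among members, S100a1 and S100a16 (0.88), S100a13 and S100a16 (0.86), S100a1 and S100a10 (0.81) and S100a1 and S100a13 (0.77) deviated together. S100a4 went with S100a11 (0.78) and S100a6 (0.76), and S100a8 with S100a9 (0.67). Control replicate 12 was the highest control library for 8 of the 9 members, all but S100a11, and its part in these values was not tested. The calprotectin genes had low values with S100a4, -0.01 for S100a8 and 0.09 for S100a9.

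**Figure D5:**
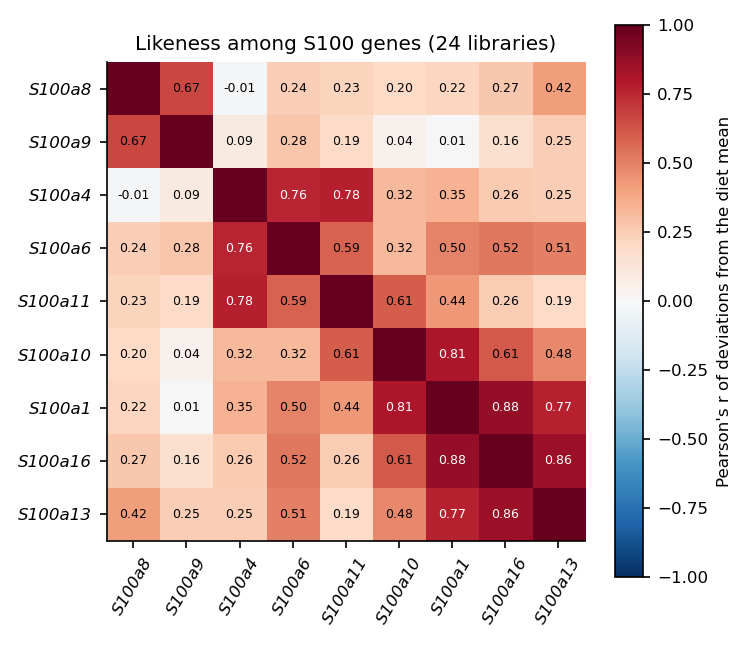
Pearson's r between S100 genes of log2 CPM deviations from the diet mean (24 libraries), on a colour scale from -1 to 1. The highest values are 0.88 for S100a1 with S100a16 and 0.86 for S100a13 with S100a16, and S100a10 stands nearer to S100a11 (0.61) than to S100a13 (0.48).

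Over 10112 genes with a mean of at least 5 CPM, the closest genes were Tnip1 (0.83), Fam129b (0.83) and Fkbp1a (0.82) for S100a4. Those for S100a6 were Selenom (0.83), Vamp5 (0.83) and Gm12744 (0.81). For S100a11 they were Cd63 (0.94), Ubd (0.92) and Fkbp1a (0.92), so Fkbp1a appears for both S100a4 and S100a11. For S100a8 the highest values among ranked genes were lower, 0.62 for Tmem60 and 0.59 for Nrde2 and 2810025M15Rik. S100a8 and S100a9 (0.67 with each other) were themselves under the 5 CPM limit and not ranked, nor were the neutrophil markers other than Csf3r. S100a9 lay nearest to Soat2 (0.76), Trf (0.73) and Dapk2 (0.70).

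Each of the 4 members that did not pass had neighbours at 0.90 or more, as did S100a11, which rose. The share of all genes with such neighbours was not counted. S100a1 lay near Bud31 (0.95), 2200002D01Rik (0.95) and Hax1 (0.94), and S100a10 near Arpp19 (0.92), Gatb (0.90) and Gpx4 (0.90). S100a13 lay near Ttc36 (0.95), Lamtor4 (0.95) and Dcxr (0.95), and S100a16 near Pfdn1 (0.94), Dpm3 (0.94) and Pfdn5 (0.94).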

How the data were processed

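Poly(A)-selected RNA of 24 whole livers was sequenced. The authors deposited whole-number counts of reads per Ensembl gene, and the submitters' processing notes name bcl2fastq, STAR 2.7.3a and mm10. The study's methods name an exon quantification pipeline, the quantifier PISCES and an Ensembl reference for alignment to the human genome, and a stranded mRNA kit. The counting program, annotation and strand setting are not stated for the mouse table in the sources used here. Symbols and coordinates came from GENCODE M21 (51745 of 56205 rows named, unnamed rows holding 0.0808% of counts). No libraries were identical (0 of 66 pairs in each diet).

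Counts were filtered by diet (filterByExpr) and scaled by TMM. They were tested with edgeR 4.0.16 (glmQLFit, glmQLFTest) over 14109 genes with Benjamini-Hochberg adjustment, at FDR ≤ 0.01 and |log2FC| > 0.5. The SE is |log2FC| divided by the square root of F. Steps were tested on simulated data. Ratios used counts plus 0.5, and correlations log2 CPM with a prior count of 2, with 100000 permutations. DESeq2 1.42.0, limma 3.58.1 (voom), other scalings and filters, a score of Xist and Y-linked genes as covariate, and leaving out each library were alternatives. The labels tie no library to a shared culture, litter or batch, so p-values measure the spread between these libraries. The members and lists were chosen with earlier results of these data known. Named genes were all members, other S100 genes, preset partners and markers, the 3 partners changing most in each direction, and the 3 genes most like each member. Promoter windows were matched by symbol to RefSeq. Values of 1 partner gene are not reported here.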

Additional observations from a re-analysis of the deposited data

How the results depend on the processing

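Under other scalings, filters, covariates and tools, the 5 members that rose stayed past the threshold wherever they were tested, with log2FC of 3.98 to 4.38 for S100a4, 3.40 to 3.79 for S100a6, 2.77 to 3.18 for S100a8, 2.27 to 2.71 for S100a9 and 2.31 to 2.63 for S100a11. A filter of at least 10 counts in every library left 1 member higher, since S100a4, S100a6, S100a8 and S100a9 were then not tested. Leaving out each library gave 5 to 6 members higher. Without the low-count filter 2 other S100 genes were higher. Lower partner genes numbered 4, and 3 with relative log expression factors, no filter, the sex-linked score, DESeq2 or limma-voom, 3 to 4 as single libraries were left out, 2 with upper-quartile factors, 1 with total counts, 2 with the 10-count filter, 7 at FDR 0.05 with no fold limit and 0 with a log2 limit of 1. With no fold limit, edgeR's unadjusted p was under 0.05 for 7 lower partner genes. Fpr1 was lower in none of the 9 other fits, Plg in 6, Dysf in 8 and Fgf1 in all 9.

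S100a1 reversed to 0.015 with relative log expression factors, 0.12 with upper-quartile factors, 0.38 with total counts, 0.0070 with no filter, 0.044 with the 10-count filter, 0.072 with the replicate block, 0.012 with the sex-linked score, 0.013 in DESeq2, 0.089 in limma-voom and 0.21 without control replicate 12 and MCD replicate 3 together. It ran from -0.12 to 0.18 as single libraries were left out. The scalings also shifted the median of all tested genes, by 0.06 with relative log expression factors, 0.15 with upper-quartile factors and 0.37 with total counts. Relative to that median S100a1 stood at 0.05, 0.06 and 0.11, and at 0.06 under TMM. The cause of its reversal in the other fits was not tested. S100a10 reversed to 0.20 with total counts, which shift the median of all tested genes by 0.37. Relative to that median it stood at -0.10 and -0.07.

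The difference between the diets in the log2 ratio of S100a8 to S100a9 ran from 0.43 to 0.78 as single libraries were left out. With total counts, S100a10 and Anxa2 correlated at r = 0.599 (permutation adjusted p = 0.0469) in control and 0.622 (adjusted p = 0.0445) in MCD livers. S100a8 and S100a9 in control livers then had rho = 0.671 (permutation adjusted p = 0.0298), which passed, and r = 0.481 (adjusted p = 0.112), which did not. Without the 2 farthest libraries, the S100a11 and Anxa1 correlations were 0.625 and 0.496.

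Whether shared replicate numbers pair the libraries was not settled. Of 12 same-numbered pairs 8 had deviations correlated above 0.1 (median r = 0.233, lowest -0.28, highest 0.349). Differently numbered pairs were not compared, so pairing was neither shown nor excluded. With a replicate block 5 members and 16 partner genes were higher and 0 members and 3 partner genes lower. The block cannot move the ratio differences, and their adjusted p values (permutation within numbers) were 0.0726 for S100a8 to S100a9 and 0.00078 for both annexin ratios. Depth limits S100a4, S100a8 and S100a9 in control livers, and the other S100 genes in both diets.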
